A study of Mus musculus with 9 samples.

Results

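The genes described here are 36 listed genes of DNA replication, the machinery that copies the genome in S phase. They were taken from the count files by exact match of the gene symbol; the rule uses no measured value, but the list was proposed with earlier results of these data known. All 36 were found among the 40879 genes of the files. All 36 also passed the filter on low counts, which left 13251 genes for testing, and no member was at 0 counts in any library. The lowest count of a member in a library was 6 (Slbp) and the highest was 4735 (Lig1).

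The libraries came from mouse bone marrow grown for 9 days with 100 ng/ml Flt3L, the growth factor that drives dendritic cell development, from which conventional type 2 dendritic cells (cDC2s, cells that present antigen mainly to CD4 T cells) were sorted. The 3 groups had 3 libraries each: WT, with no treatment named in its titles; WT+IFNa, wild-type cultures given interferon alpha on day 5; and A20iKO, with the genotype A20fl/fl x CD11ccre. In that genotype a Cre recombinase driven by the CD11c promoter deletes the floxed gene of A20, an inhibitor of NF-kB signalling encoded by Tnfaip3, in cells that express CD11c. The protocol field names IFNa for every library, so the absence of IFNa from the WT and A20iKO cultures rests on the titles and the separate treatment entry. Per the design text the cells of each group were derived from 3 mice; mouse age and strain, the IFNa dose and whether a library is 1 mouse are not stated in those sources, so p-values measure the spread between these libraries.

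Total counts were between 6900598 and 10552756 per library. Levels are CPM, that is, counts relative to the library's total with TMM scaling factors. Since 3' end tags were sequenced, levels need no division by transcript length. Tnfaip3 was at 22.8, 6.82 and 4.27 CPM in WT libraries 1 to 3, at 7.95, 9.73 and 11 CPM in WT+IFNa and at 37.5, 54.0 and 39.7 CPM in A20iKO, so its 3' tags were higher in the A20iKO libraries (log2 fold change 1.95, SE 0.515, edgeR adjusted p = 0.0280). No label names the deleted exons, so these 3' tags do not check the deletion. All 10 cDC2 markers were present, and their summed level was 13894 to 17917 CPM in WT, 9981 to 12067 CPM in WT+IFNa and 7102 to 8257 CPM in A20iKO. The sum was made up largely of H2-Ab1 and Cd74, with means of 8502 and 5921 CPM in WT and 3809 and 2935 CPM in A20iKO. At an edgeR adjusted p under 0.05, 8 of the 10 were lower in A20iKO than in WT and 1, Sirpa, was higher. Of all genes tested, 4.91% were lower and 5.77% higher. Stromal transcripts such as Col1a1 stood out in 1 library of each group: the summed level of 12 stromal markers was 4712 CPM in WT library 2, 4843 CPM in WT+IFNa library 3 and 4467 CPM in A20iKO library 1, against 485 to 2404 CPM in the other 6.

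Replication starts with licensing, in which the loader proteins Cdc6 and Cdt1 place the ring-shaped Mcm2-7 helicase on origins before S phase. Cdc45 and the GINS complex then turn the ring into a working helicase, polymerases and the sliding clamp copy both strands, and a supply of deoxynucleotides and new histones keeps pace. Many of these genes are transcribed together at the entry into S phase by E2F factors once cyclin and kinase complexes have inactivated the retinoblastoma protein, and the level of the set is widely read as a mark of cycling cells. Developing dendritic cells divide as progenitors and largely stop as they mature.

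Because the members share this kind of control, the promoters were searched for 4 spellings of the E2F site (TTTCCCGC, TTTGGCGC, TTTCGCGC and TTTGCCGC) on both strands, in a window from 250 bases before to 50 bases after the gene's start. RefSeq promoters (build GRCm38.p6, while the counts were made on GRCm39) were available for 31 of the 36 members, and Gins1, Gins2, Mcm4, Pole and Ccne2 had no entry. At least 1 spelling was in 12 of the 31 (38.7%) and in 2.605% of the 27025 genes in the table. The 8 shown are the members with a match that were higher in A20iKO than in WT (Mcm3, Mcm7, Cdc6, Lig1, Uhrf1 and E2f2) and 2 other helicase subunits (Mcm5 and Mcm6) with overlapping matches. Each is written 5′ to 3′ on the gene's strand, in lower case, with the E2F letters of either strand in capitals.
Mcm7, chr5:138172015-138172074, minus strand, upstream of the start: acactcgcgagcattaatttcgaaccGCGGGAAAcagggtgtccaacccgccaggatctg
Cdc6, chr11:98907987-98908046, plus strand, upstream: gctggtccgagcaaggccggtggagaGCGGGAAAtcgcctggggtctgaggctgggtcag
Uhrf1, chr17:56304102-56304161, plus strand, upstream: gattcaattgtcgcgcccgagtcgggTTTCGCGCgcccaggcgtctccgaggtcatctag
Mcm5, chr8:75109330-75109393, plus strand, upstream: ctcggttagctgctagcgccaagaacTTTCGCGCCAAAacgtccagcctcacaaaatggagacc
Mcm6, chr1:128359719-128359841, minus strand, upstream: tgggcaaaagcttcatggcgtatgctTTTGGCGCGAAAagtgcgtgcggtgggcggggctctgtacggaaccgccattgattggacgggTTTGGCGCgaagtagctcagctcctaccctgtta
Mcm3, chr1:20820275-20820304, minus strand, after the start: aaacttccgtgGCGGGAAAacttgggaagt
Lig1, chr7:13278841-13278870, plus strand, after the start: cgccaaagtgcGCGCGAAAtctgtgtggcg
E2f2, chr4:136172294-136172323, plus strand, after the start: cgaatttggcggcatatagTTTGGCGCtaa

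In Mcm5 and Mcm6 the 12 capitals in a row are 1 match on each strand that share 4 bases, and Mcm6 has another match nearer the start. The matches of Mcm7, Cdc6, Uhrf1 and Mcm5 lie 131 to 185 bases before the start, and those of Lig1 and E2f2 lie within the first 50 transcribed bases. Mcm3 and Mcm7 each have another match after the start. The other members with a match were Cdt1, Pola1, Pold1 and Rfc3. A match is a run of letters and not a measured binding site.

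**Figure D1:**
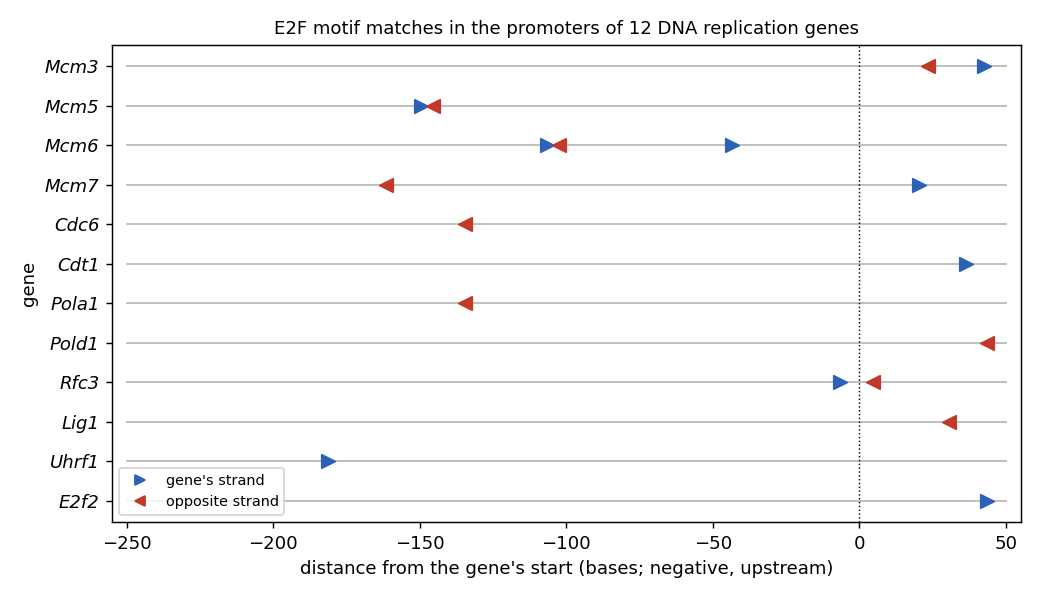
Position of each match to the 4 E2F spellings in the 12 member promoters that hold one. The horizontal axis is the distance in bases from the gene's start (dotted line), rows are genes, blue triangles are matches on the gene's strand and red triangles matches on the opposite strand. Matches begin between 185 bases before the start (Uhrf1) and 40 bases after it (E2f2 and Pold1).

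DNA replication genes were higher in the A20iKO libraries than in the WT libraries, both from cells sorted as cDC2s. Of the 36 members, 19 rose, none fell and 17 did not pass the threshold of an edgeR adjusted p of 0.05, while 5.77% of all genes tested were higher and 4.91% lower in this comparison. No member was lower at an unadjusted p under 0.05 in any comparison. The median log2 fold change of the members was 0.95, and that of all genes tested was -0.01. The libraries of the groups did not overlap, with all 3 A20iKO libraries above all 3 WT libraries, for 26 members and for 15.4% of all genes; the reverse held for 0 members and 12.6% of all genes. The summed level of the 36 genes was 1629 ± 122 CPM (SD, n = 3) in WT and 3243 ± 494 CPM in A20iKO, and the lowest A20iKO library (2674 CPM) lay above the highest WT library (1753 CPM).

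Under IFNa 2 members, Mcm10 and Lig1, rose against WT and none fell, in a comparison in which 2.40% of all genes were higher and 0.702% lower. The median log2 fold change was 0.52 (all genes, -0.02), 34 of 36 values were above 0, and the 3 WT+IFNa libraries lay above the 3 WT libraries for 17 members and below them for none, against 9.77% and 8.45% of all genes. Their summed level was 2440 ± 277 CPM (SD, n = 3), with a lowest library of 2252 CPM that was again above every WT library. In bulk libraries such as these, a larger share of cells in S phase and more of each transcript per cell cannot be told apart.

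Set directly against WT+IFNa, the A20iKO libraries were higher for 1 member, Rfc5, and lower for none, with 2.05% of all genes higher and 3.41% lower. The median log2 fold change was 0.39 (all genes, 0.02), and the groups did not overlap for 14 members, all higher in A20iKO, against 12.3% of all genes. Of the 17 members that passed against WT in A20iKO and not under IFNa, 1 thus differed past the threshold between A20iKO and WT+IFNa. The comparisons with WT share the same 3 WT libraries and are given side by side.

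**Figure D2:**
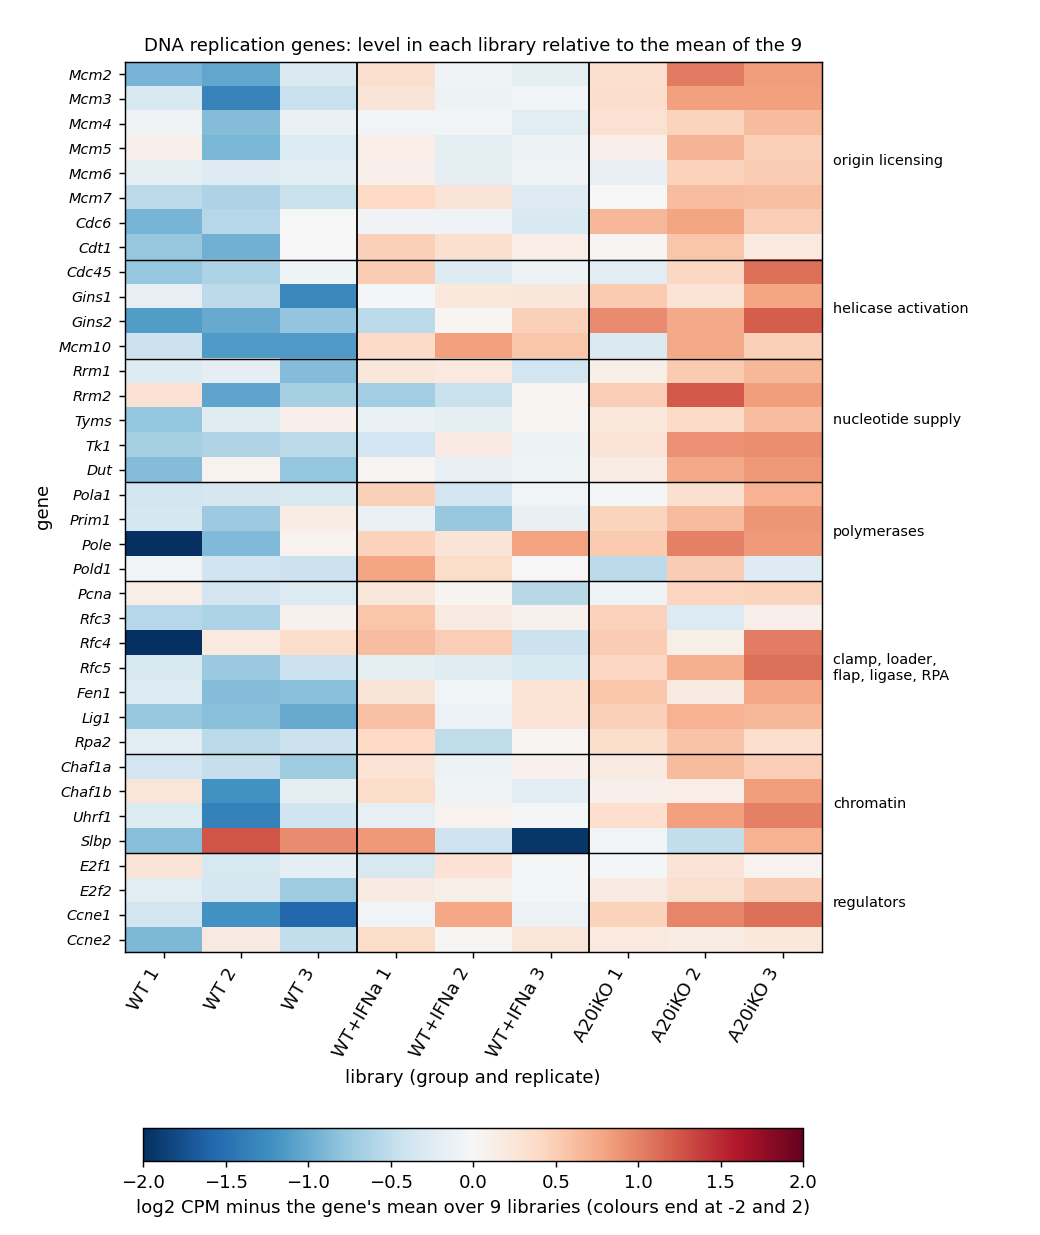
Level of each of the 36 genes (rows, grouped by role) in each of the 9 libraries (columns), as log2 CPM minus the gene's mean over the 9. Blue is below and red above that mean, and colours end at -2 and 2; the A20iKO columns are mostly red and the WT columns mostly blue, with Slbp as the clearest exception.

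The order of the group means was WT, then WT+IFNa, then A20iKO for 29 of the 36 genes. In 5 genes (Cdt1, Mcm10, Pold1, Rfc3 and Ccne2) the WT+IFNa mean was the highest of the 3, Prim1 was lowest in WT+IFNa and highest in A20iKO, and Slbp was highest in WT. By single library, A20iKO library 3 held the highest level of 19 members and A20iKO library 2 that of 11, while A20iKO library 1 held none. The lowest level was in a WT library for 30 members, 14 of them in WT library 2. The library with the most stromal transcripts was the one with the lowest mean member level in each of the 3 groups; with a stromal covariate in the fit 22 members were higher in A20iKO than in WT, and without those 3 libraries 15 were.

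Among the origin licensing genes, 5 of 8 rose in A20iKO and none passed the threshold under IFNa in the edgeR test of all 9 libraries. Under IFNa 4 had an unadjusted edgeR p under 0.05, as did 1685 of the 13251 genes tested. Of the 19 other settings tried, Mcm7 passed under IFNa in 6, Mcm3 in 2 and Cdt1 in 1. Mcm2, a subunit of the helicase ring, was at 31.0, 28.6 and 48.7 CPM in WT, at 73.9, 56.2 and 51.9 CPM in WT+IFNa and at 74.5, 123 and 106 CPM in A20iKO. The A20iKO libraries were all above the WT+IFNa libraries, which were all above WT, and the log2 fold change of A20iKO against WT was 1.48 (SE 0.266, edgeR adjusted p = 0.00254). Against WT, Mcm2 differed in WT+IFNa by 0.75 on the log2 scale (SE 0.263, edgeR adjusted p = 0.204). Mcm3, another subunit, had WT levels of 139, 68.2 and 126 CPM, WT+IFNa levels of 207, 159.6 and 166 CPM and A20iKO levels of 219, 304 and 303 CPM. This gave the same stepwise order without overlap, and a log2 fold change of 1.31 in A20iKO (SE 0.245, edgeR adjusted p = 0.00354).

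Mcm7, whose upstream E2F letters are shown above, was the most abundant of the ring subunits called and the licensing gene with the smallest p under IFNa. It was at 180.3, 171 and 192 CPM in WT, at 347, 313 and 218 CPM in WT+IFNa and at 260.0, 402 and 398 CPM in A20iKO. Both other groups lay above WT and overlapped each other; the log2 fold change was 0.96 in A20iKO (SE 0.204, edgeR adjusted p = 0.00782) and 0.69 under IFNa (SE 0.204, edgeR adjusted p = 0.107). Mcm4 had levels of 69.4, 39.9 and 66.3 CPM in WT, 70.2, 69.6 and 62.1 CPM in WT+IFNa and 90.2, 98.8 and 113 CPM in A20iKO. Here WT and WT+IFNa overlapped and A20iKO lay above both (log2 fold change 0.78 against WT, SE 0.222, edgeR adjusted p = 0.0394).

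Cdc6, which loads the ring onto origins, was at 12.2, 15.8 and 23.5 CPM in WT, at 22.4, 22.2 and 19.02 CPM in WT+IFNa and at 37.3, 40.7 and 33.2 CPM in A20iKO. A20iKO was the group that stood apart, with a log2 fold change against WT of 1.11 (SE 0.305, edgeR adjusted p = 0.0336). Its partner Cdt1 showed another order: 28.1, 24.5 and 47.5 CPM in WT, 66.3, 59.3 and 52.3 CPM in WT+IFNa and 48.8, 70.4 and 54.5 CPM in A20iKO. Both groups were above every WT library, by 0.83 (IFNa) and 0.79 (A20iKO) on the log2 scale, and neither passed the threshold (edgeR adjusted p = 0.163 and 0.0886). Mcm5 and Mcm6, the subunits with overlapping E2F letters, had log2 fold changes in A20iKO of 0.74 and 0.52 (edgeR adjusted p = 0.0846 and 0.126). Thus 7 of the 8 licensing genes, and 15.4% of all genes, had A20iKO libraries above all WT libraries. Mcm5 was the exception by a small margin (84.5 CPM in A20iKO library 1 against 84.6 CPM in WT library 1).

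Of the 4 genes that turn the loaded ring into a moving helicase, Gins2 and Mcm10 rose in A20iKO, and Mcm10 also under IFNa. Gins2, a subunit of the GINS complex, went from 7.06, 7.62 and 8.94 CPM in WT to 10.8, 15.9 and 21.7 CPM in WT+IFNa and 29.96, 26.3 and 36.3 CPM in A20iKO. The 3 groups did not overlap, and its log2 fold change in A20iKO, 1.97 (SE 0.359, edgeR adjusted p = 0.00289), was the highest of the 36; under IFNa it was 1.03 (SE 0.353, edgeR adjusted p = 0.188). Mcm10, which stabilizes the active helicase, was at 17.5, 10.6 and 10.6 CPM in WT, at 30.6, 41.6 and 34.6 CPM in WT+IFNa and at 19.2, 39.7 and 32.7 CPM in A20iKO. Both groups lay above WT and overlapped each other, with log2 fold changes of 1.47 under IFNa (SE 0.344, edgeR adjusted p = 0.0351) and 1.24 in A20iKO (SE 0.342, edgeR adjusted p = 0.0342). The Mcm10 call under IFNa was lost in 7 of the 9 fits that left out 1 library (largest edgeR adjusted p = 0.146, without WT library 3) and kept without WT library 1 or A20iKO library 1.

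Gins1 and Cdc45, the other helicase activators, had means of 16.1 and 16.6 CPM over the 9 libraries, near the 18.3 CPM of Gins2. Gins1 was at 5.99 to 13.3 CPM in WT and 18.2 to 26.1 CPM in A20iKO, without overlap (log2 fold change 1.15, edgeR adjusted p = 0.0758). Cdc45 was at 9.02 to 14.5 CPM in WT and 13.1 to 33.3 CPM in A20iKO, where the groups overlapped (log2 fold change 1.00, edgeR adjusted p = 0.173).

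**Figure D3:**
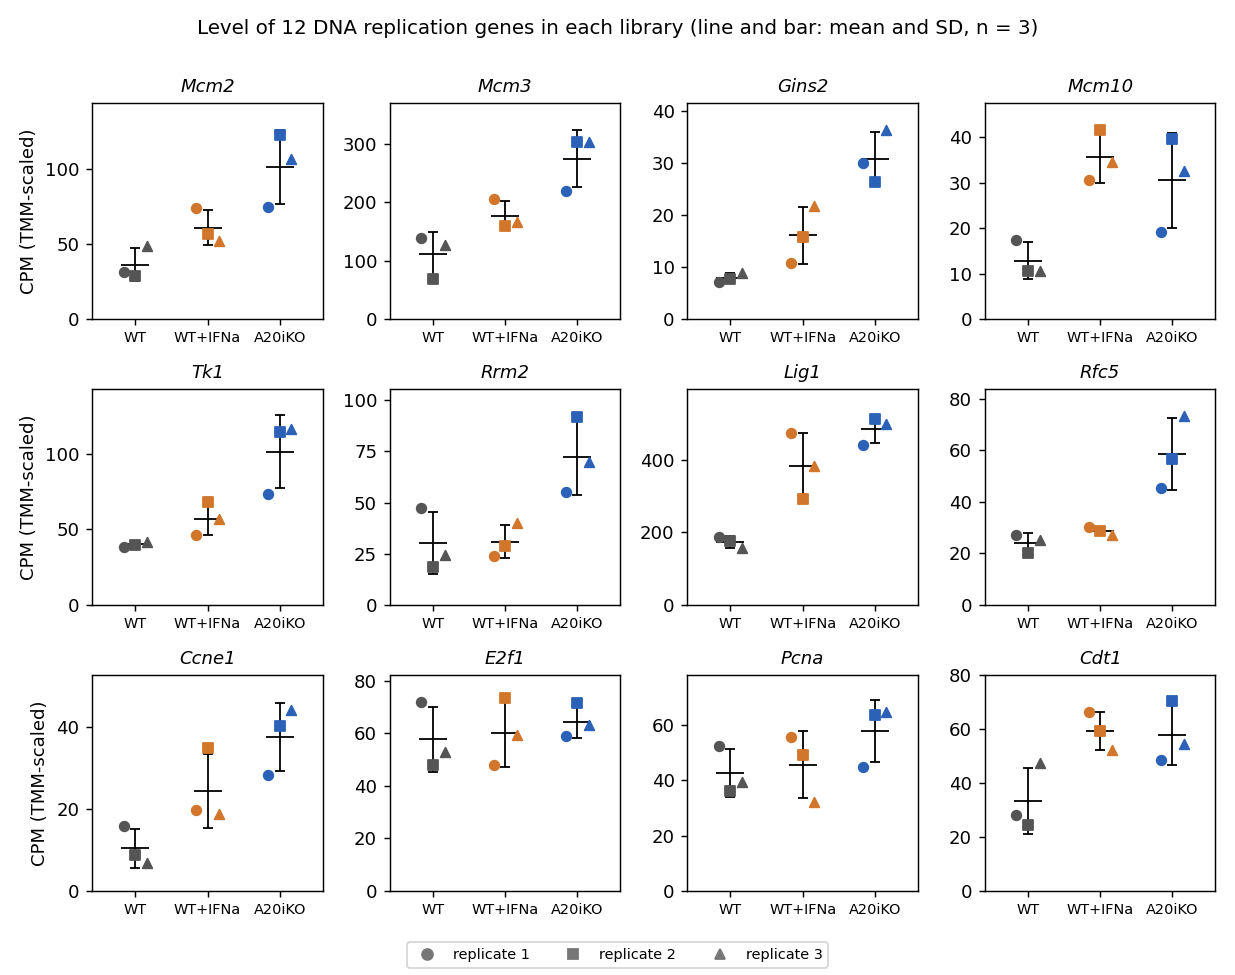
CPM of 12 members in each library, with the group mean (horizontal line) and SD (bar) of 3 libraries; circles, squares and triangles are replicates 1, 2 and 3. Mcm2, Mcm3, Gins2 and Tk1 step up without overlap from WT to WT+IFNa to A20iKO, Rfc5 and Rrm2 are set apart in A20iKO alone, Mcm10 and Cdt1 are about level in both, and E2f1 and Pcna overlap across the groups.

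The nucleotide supply genes gave the fullest count, with 4 of 5 higher in A20iKO. None passed under IFNa with edgeR, DESeq2 or limma-voom. There 1, Tk1, had an unadjusted edgeR p under 0.05, as did 1685 of the 13251 genes tested. Tk1, the thymidine kinase that salvages thymidine in S phase, was at 38.3, 39.9 and 41.7 CPM in WT, at 46.2, 67.9 and 56.6 CPM in WT+IFNa and at 73.6, 114 and 116 CPM in A20iKO. The 3 WT libraries were close together and the groups did not overlap; the log2 fold change was 1.34 in A20iKO (SE 0.228, edgeR adjusted p = 0.00176) and 0.51 under IFNa (SE 0.226, edgeR adjusted p = 0.359). Directly between A20iKO and WT+IFNa it was 0.83 (SE 0.225), at an edgeR adjusted p of 0.050002 that fell just outside the threshold. Rrm2, the S-phase subunit of ribonucleotide reductase, was at 47.6, 18.7 and 24.5 CPM in WT, at 24.0, 28.7 and 40.0 CPM in WT+IFNa and at 55.1, 92.0 and 69.7 CPM in A20iKO. WT and WT+IFNa overlapped (log2 fold change 0.03, edgeR adjusted p = 0.994), and A20iKO lay above both, by 1.25 against WT (SE 0.349, edgeR adjusted p = 0.0357) and by 1.23 against WT+IFNa (SE 0.349, edgeR adjusted p = 0.0628).

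Rrm1, the large subunit of the same enzyme, was at 78.7, 82.5 and 51.3 CPM in WT, at 110.1, 108 and 72.1 CPM in WT+IFNa and at 102, 135 and 149.8 CPM in A20iKO. It was higher in A20iKO than in every WT library, by 0.86 on the log2 scale (SE 0.239, edgeR adjusted p = 0.0350). Dut, which removes dUTP so that uracil is not built into DNA, was at 49.1, 93.8 and 52.3 CPM in WT, at 91.8, 80.0 and 84.7 CPM in WT+IFNa and at 99.8, 152 and 163 CPM in A20iKO (log2 fold change 1.09 against WT, SE 0.261, edgeR adjusted p = 0.0164). WT library 2 was the high one of its group and still lay below the A20iKO libraries. Tyms, thymidylate synthase, was at 20.01 to 36.6 CPM in WT and 39.8 to 52.7 CPM in A20iKO without passing the threshold (log2 fold change 0.68, edgeR adjusted p = 0.143). Its near-copy Tyms-ps held 5 counts in WT library 2 and 0 in the other 8, and how reads shared by both were counted is not stated in the labels.

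None of the 4 polymerase genes passed the threshold of the edgeR test of all 9 libraries in any comparison. Against WT, 3 of them had A20iKO libraries above all WT libraries and an unadjusted edgeR p under 0.05. Of all genes tested, 15.4% had A20iKO libraries above all WT libraries. In either direction, 2956 of the 13251 genes had an unadjusted edgeR p under 0.05. The median log2 fold change of the 4 polymerase genes was 0.82. Of the 19 other settings tried, Pola1 passed in 4 and Pole in 3. Pola1, the catalytic subunit of the polymerase that starts each strand, was at 63.5, 64.7 and 66.4 CPM in WT, at 115, 62.6 and 78.6 CPM in WT+IFNa and at 80.6, 103 and 132 CPM in A20iKO. It differed from WT by 0.70 in A20iKO (SE 0.242, edgeR adjusted p = 0.0925). Prim1, the primase subunit, was at 8.69 to 16.1 CPM in WT, 8.46 to 13.3 CPM in WT+IFNa and 19.98 to 26.97 CPM in A20iKO (log2 fold change 0.94 against WT, SE 0.376, edgeR adjusted p = 0.150, and 1.00 against WT+IFNa, SE 0.377, edgeR adjusted p = 0.180). Pole, the leading-strand polymerase, was the member with the widest WT spread for its level, 1.08, 5.89 and 11.6 CPM, against 15.9 to 22.2 CPM in A20iKO (log2 fold change 1.65, SE 0.618, edgeR adjusted p = 0.122). Pold1, the lagging-strand polymerase, was at 40.2 to 52.4 CPM in WT, 54.8 to 94.1 CPM in WT+IFNa and 37.9 to 77.7 CPM in A20iKO. It was above WT without overlap under IFNa alone (log2 fold change 0.71, SE 0.289, edgeR adjusted p = 0.304).

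Among the clamp, its loader and the enzymes that finish the lagging strand, 4 of 7 rose in A20iKO. Lig1, the DNA ligase that seals Okazaki fragments, had the smallest p of all members in both comparisons with WT. Its levels were 187, 177 and 157 CPM in WT, 473, 293 and 382 CPM in WT+IFNa and 442, 514 and 499 CPM in A20iKO. Both groups lay far above WT and overlapped each other, with log2 fold changes of 1.14 under IFNa (SE 0.175, edgeR adjusted p = 0.00212) and 1.48 in A20iKO (SE 0.177, edgeR adjusted p = 0.000117). Both Lig1 calls were kept in all 19 other settings tried. Fen1, the flap nuclease that works beside Lig1, was at 45.1, 29.7 and 30.5 CPM in WT, at 65.0, 52.1 and 65.5 CPM in WT+IFNa and at 79.8, 61.6 and 92.8 CPM in A20iKO. It was above WT in both groups, by 1.15 in A20iKO (SE 0.239, edgeR adjusted p = 0.00677) and by 0.79 under IFNa (SE 0.238, edgeR adjusted p = 0.115).

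Rfc5, a subunit of the clamp loader, was the 1 member past the threshold between A20iKO and WT+IFNa in the edgeR test of all 9 libraries. Of the 19 other settings tried, Rfc5 passed in 13, Tk1 in 12, Rrm2 in 9, Mcm3 in 5 and Dut in 2. It was at 27.3, 20.2 and 25.2 CPM in WT, at 30.1, 28.7 and 27.2 CPM in WT+IFNa and at 45.5, 56.9 and 73.5 CPM in A20iKO. The WT and WT+IFNa libraries overlapped and A20iKO stood above both, by 1.27 against WT (SE 0.254, edgeR adjusted p = 0.00530) and by 1.03 against WT+IFNa (SE 0.253, edgeR adjusted p = 0.0305). The call against WT+IFNa was lost without any 1 of the WT+IFNa libraries, or without A20iKO library 2 or 3. The loader subunits Rfc3 and Rfc4 did not pass the threshold: Rfc3 was at 11.2 to 18.6 CPM in WT and 14.5 to 24.3 CPM in A20iKO, and Rfc4 at 1.08 to 12.1 CPM and 10.1 to 19.3 CPM. Rpa2, which binds single-stranded DNA behind the helicase, was at 67.2, 53.2 and 57.6 CPM in WT, at 102, 54.5 and 78.8 CPM in WT+IFNa and at 99.1, 116 and 98.3 CPM in A20iKO (log2 fold change 0.81, SE 0.226, edgeR adjusted p = 0.0357).

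Pcna, the sliding clamp and a common proliferation marker, was among those that did not pass. Its levels were 52.3, 36.2 and 39.3 CPM in WT, 55.6, 49.1 and 32.2 CPM in WT+IFNa and 44.7, 63.8 and 64.8 CPM in A20iKO. The 3 groups overlapped, with log2 fold changes against WT of 0.44 in A20iKO (SE 0.264, edgeR adjusted p = 0.380) and 0.10 under IFNa (SE 0.264, edgeR adjusted p = 0.951).

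**Figure D4:**
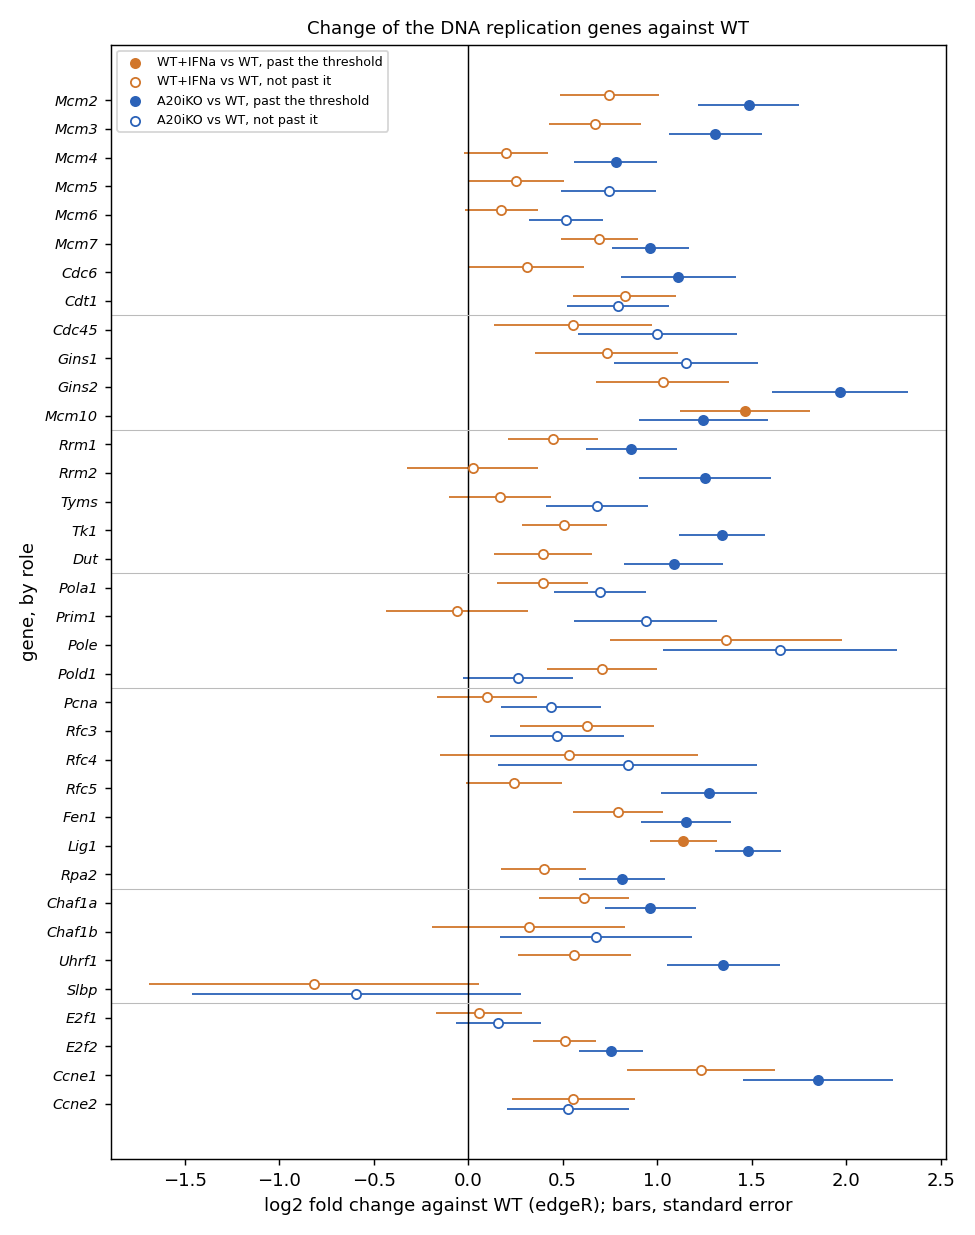
Log2 fold change against WT of each member, by role, in WT+IFNa (orange) and A20iKO (blue), with bars of 1 standard error; filled circles passed the edgeR adjusted p of 0.05. There are 19 filled blue and 2 filled orange circles (Mcm10 and Lig1), and 1 gene, Slbp, lies below 0 in both.

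Of the chromatin genes, Chaf1a and Uhrf1 rose in A20iKO. Uhrf1, which brings the maintenance methylase to newly copied DNA, was at 30.4, 14.3 and 27.9 CPM in WT, at 32.8, 38.6 and 36.1 CPM in WT+IFNa and at 46.4, 65.1 and 74.2 CPM in A20iKO. The groups did not overlap, and the log2 fold change was 1.35 in A20iKO (SE 0.301, edgeR adjusted p = 0.0105) and 0.56 under IFNa (SE 0.298, edgeR adjusted p = 0.481). Chaf1a, the large subunit of the histone chaperone CAF-1, was at 27.3, 25.9 and 21.7 CPM in WT, at 43.5, 33.1 and 38.0 CPM in WT+IFNa and at 40.5, 55.5 and 50.1 CPM in A20iKO. Both groups were above WT, by 0.96 in A20iKO (SE 0.241, edgeR adjusted p = 0.0209) and by 0.61 under IFNa (SE 0.240, edgeR adjusted p = 0.271). Its partner Chaf1b was low, at 3.75 to 10.7 CPM in WT and 9.73 to 16.2 CPM in A20iKO (edgeR adjusted p = 0.512). Slbp, which binds the ends of replication-dependent histone transcripts, was the member of lowest level: 2.16, 10.2 and 8.12 CPM in WT, 7.63, 3.01 and 0.892 CPM in WT+IFNa and 3.94, 2.84 and 6.74 CPM in A20iKO. With 6 to 80 counts per library, its groups overlapped and its log2 fold change in A20iKO, -0.59, had an SE of 0.871 (edgeR adjusted p = 0.789).

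The regulators of S-phase entry were split. Ccne1, the cyclin that activates Cdk2 at the start of S phase, was at 15.8, 8.69 and 6.70 CPM in WT, at 19.7, 35.0 and 18.7 CPM in WT+IFNa and at 28.3, 40.4 and 44.2 CPM in A20iKO. Both groups lay above WT, with a log2 fold change of 1.85 in A20iKO (SE 0.396, edgeR adjusted p = 0.00821) and 1.23 under IFNa (SE 0.391, edgeR adjusted p = 0.146). E2f2, an activator E2F, was at 152, 139.9 and 108 CPM in WT, at 201.984, 193 and 175 CPM in WT+IFNa and at 201.998, 221 and 254 CPM in A20iKO. Both groups lay above WT, with a change of 0.76 in A20iKO on the log2 scale (SE 0.169, edgeR adjusted p = 0.0105). A20iKO lay above WT+IFNa by a very small margin (201.998 against 201.984 CPM) and did not pass against it (edgeR adjusted p = 0.559). E2f1, its close relative, was level: 71.9, 48.2 and 53.1 CPM in WT, 47.8, 73.4 and 59.3 CPM in WT+IFNa and 59.0, 71.5 and 63.1 CPM in A20iKO. The 3 groups of E2f1 overlapped, and its log2 fold changes against WT were 0.16 in A20iKO (SE 0.226, edgeR adjusted p = 0.779) and 0.06 under IFNa (SE 0.226, edgeR adjusted p = 0.970). Ccne2, the other E-type cyclin, was at 11.97 to 25.5 CPM in WT and 24.97 to 26.02 CPM in A20iKO (edgeR adjusted p = 0.391).

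Members of low level passed less often than the others. Of the 9 members with a mean under 20 CPM over the 9 libraries, 1 (Gins2) passed in A20iKO against WT, and of the 27 at or above it 18 did, while the median log2 fold changes of both were about alike (0.94 and 0.96). The median SE was 0.42 in the low members and 0.25 in the others. Pcna and E2f1, at 42.6 and 57.7 CPM in WT, belong to the better measured ones.

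The calls of A20iKO against WT depended in part on single libraries. Of the 19, 8 were kept in all 19 other settings tried (Mcm2, Mcm3, Mcm7, Gins2, Tk1, Rfc5, Lig1 and Ccne1). The count was 9 without A20iKO library 3, 11 without A20iKO library 2, and 13 to 19 without any other single library. The 13, without WT library 3, include 2 gained members, and 8 of the 19 calls were lost there. Over all genes, 765 (5.77%) were higher with all 9 libraries. That number was 478 (3.40%) without A20iKO library 3 and 480 (3.39%) without A20iKO library 2. Without A20iKO library 3 the calls of Mcm4, Cdc6, Mcm10, Rrm1, Rrm2, Dut, Rpa2, Chaf1a, Uhrf1 and E2f2 were lost, and all but the last 2 of these also without A20iKO library 2. Fen1 kept its call in all 9 fits with 1 library left out.

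A list of 42 other genes of the same process holds none of the members. In A20iKO 7 of the 42 rose against WT and none fell (median log2 fold change 0.43), and under IFNa 4 rose and none fell (median 0.30). Of all genes tested, 5.77% were higher in A20iKO and 2.40% under IFNa. Timeless, of the fork protection complex, was at 18.2 ± 6.93 CPM (SD, n = 3) in WT, 76.0 ± 24.2 CPM in WT+IFNa and 66.4 ± 7.46 CPM in A20iKO, with log2 fold changes of 2.06 under IFNa (edgeR adjusted p = 0.00195) and 1.87 in A20iKO (edgeR adjusted p = 0.00154). Hells, a remodeller of newly copied chromatin, rose by 1.19 and 1.49, and Dnmt1, the maintenance methylase that Uhrf1 recruits, by 0.90 and 0.83 on the log2 scale (edgeR adjusted p = 0.00351 and 0.000283 for Hells, 0.00313 and 0.00231 for Dnmt1). The large clamp loader subunit Rfc1 rose under IFNa (0.73, edgeR adjusted p = 0.0202), and was at 0.34 in A20iKO (edgeR adjusted p = 0.218). Against WT, and not under IFNa, Rfc2 (1.06, edgeR adjusted p = 0.00856), Orc2 of the origin recognition complex (1.29, edgeR adjusted p = 0.0348), the checkpoint mediator Clspn (0.99, edgeR adjusted p = 0.0264) and the histone chaperone Asf1b (1.42, edgeR adjusted p = 0.00365) passed the threshold in A20iKO. No gene of this list passed between A20iKO and WT+IFNa. There 7 of the 42 had an unadjusted edgeR p under 0.05, as did 2196 of the 13251 genes tested. The libraries did not overlap for 5 of the 42 higher in A20iKO and for 4 lower (all genes, 12.3% in each direction). Gmnn, geminin, which blocks relicensing by binding Cdt1, was at 19.1 ± 8.27, 25.2 ± 2.09 and 31.6 ± 8.57 CPM (SD, n = 3) in WT, WT+IFNa and A20iKO and did not pass (edgeR adjusted p = 0.265 in A20iKO against WT).

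Of 9 further genes of nucleotide supply, 2 rose under IFNa and 1 rose in A20iKO, each against WT. Directly against WT+IFNa, 1 was higher in A20iKO. None was lower past the threshold in these comparisons. Of all genes tested, 2.40%, 5.77% and 2.05% were higher, in the same order of comparisons. Dck, which phosphorylates deoxycytidine, was at 19.1 ± 4.03 CPM (SD, n = 3) in WT, 85.8 ± 14.2 CPM in WT+IFNa and 54.9 ± 11.3 CPM in A20iKO, and rose in both (2.17 and 1.52 on the log2 scale, edgeR adjusted p = 0.000167 and 0.00121). Samhd1, an interferon-inducible enzyme that breaks down deoxynucleotides, rose under IFNa (1.01, SE 0.183, edgeR adjusted p = 0.00740) and was at 0.33 in A20iKO (SE 0.182, edgeR adjusted p = 0.319). The nucleoside diphosphate kinase Nme1 was higher in A20iKO than in WT+IFNa (1.18, edgeR adjusted p = 0.00794).

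The cyclins, kinases, inhibitors and other E2F genes upstream of S phase, 24 in number, differed between the groups in single genes. Cdk6, which inactivates the retinoblastoma protein together with D-type cyclins, was at 33.7 ± 3.45 CPM (SD, n = 3) in WT, 54.9 ± 11.4 CPM in WT+IFNa and 253 ± 42.2 CPM in A20iKO, with a log2 fold change of 2.91 in A20iKO against WT (SE 0.209, edgeR adjusted p = 1.98e-06) and of 2.21 against WT+IFNa (SE 0.203, edgeR adjusted p = 3.11e-05). Of the D-type cyclins, Ccnd1 and Ccnd2 showed another pattern. Ccnd2 was at 212 ± 29.5, 926 ± 133 and 301 ± 39.4 CPM in WT, WT+IFNa and A20iKO, and Ccnd1 at 1368 ± 190, 2286 ± 268 and 1233 ± 285 CPM. Both rose under IFNa (2.13 and 0.74, edgeR adjusted p = 4.76e-06 and 0.0329) and both were lower in A20iKO than in WT+IFNa (-1.62 and -0.89, edgeR adjusted p = 6.50e-05 and 0.00784). Ccnd3, at 375 ± 81.5, 424 ± 55.5 and 273 ± 36.1 CPM in WT, WT+IFNa and A20iKO, passed in no comparison. Its log2 fold change under IFNa was 0.18 (edgeR adjusted p = 0.802). Cdkn1a, the inhibitor p21, rose under IFNa (0.84, SE 0.187, edgeR adjusted p = 0.0262) and was at 0.42 in A20iKO (SE 0.186, edgeR adjusted p = 0.198). Tfdp2, a partner of E2F proteins in DNA binding, fell in A20iKO against WT (-1.48, edgeR adjusted p = 0.0377). The median of the 24 was 0.24 in A20iKO and 0.25 under IFNa against WT. In these comparisons 1 and 3 of the 24 were higher, beside 5.77% and 2.40% of all genes.

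Of 25 genes of mitosis, 18 rose in A20iKO and 9 under IFNa against WT, 2 (Birc5 and Ube2c) were higher in A20iKO than in WT+IFNa, and none fell in any of the 3. Their median log2 fold changes were 1.16, 0.67 and 0.49. Of all genes tested, 5.77%, 2.40% and 2.05% were higher in these 3 comparisons. Mki67, the gene of the proliferation marker Ki-67, was at 90.3 ± 33.4 CPM (SD, n = 3) in WT, 144 ± 18.8 CPM in WT+IFNa and 209.6 ± 24.8 CPM in A20iKO, and rose in A20iKO (1.21, edgeR adjusted p = 0.00405). Birc5, of the chromosomal passenger complex, rose in both, from 72.1 ± 7.98 to 151.7 ± 28.02 and 236 ± 7.01 CPM (1.07 and 1.71, edgeR adjusted p = 0.00278 and 3.11e-05). Ccnb1, the mitotic cyclin, also rose in both (1.18 and 2.15, edgeR adjusted p = 0.0335 and 0.000246), as did Top2a, Cenpe, Cdc20, Plk1 and Kif11 (0.62 to 1.19 under IFNa and 1.04 to 1.66 in A20iKO).

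**Figure D5:**
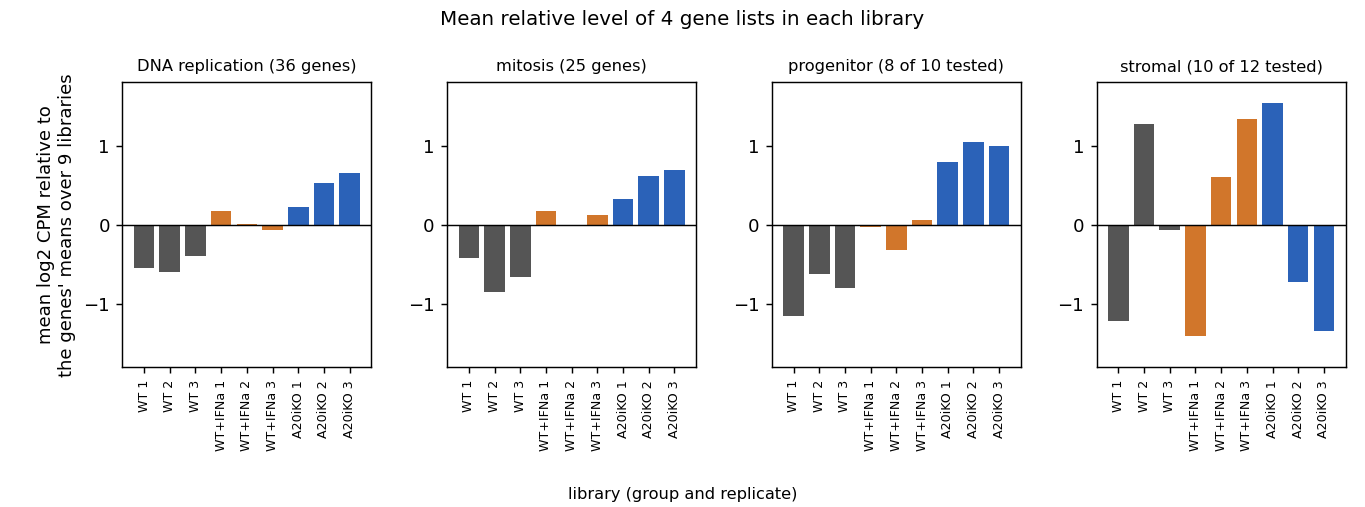
Mean relative level (log2 CPM minus each gene's mean over the 9 libraries, averaged over the genes) of the replication members, the mitosis list, the progenitor markers and the stromal markers in each library. Replication, mitosis and progenitor bars are below 0 in the WT libraries and above 0 in the A20iKO libraries, while the stromal bars are high in 1 or 2 libraries of each group and follow no group.

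Markers of other cells moved with some of the groups. Of all genes tested, 5.77% were higher and 4.91% lower in A20iKO than in WT, and 2.40% higher and 0.702% lower under IFNa. Of 8 progenitor markers tested, of 10 listed, 5 (Kit, Cd34, Sox4, Ly6a and Myb) were higher in A20iKO than in WT, and 1, the interferon-inducible Ly6a, was higher under IFNa. Cebpa went the other way, at 76.1, 72.0 and 76.9 CPM in WT and 55.2, 45.8 and 52.9 CPM in A20iKO, without passing the threshold. Directly between A20iKO and WT+IFNa, Kit, Myb and Sox4 were higher and Ly6a lower in A20iKO. Kit, the stem cell factor receptor, was at 23.8, 23.9 and 21.5 CPM in WT, at 23.0, 14.9 and 30.2 CPM in WT+IFNa and at 62.2, 85.7 and 65.0 CPM in A20iKO, so that it was level between WT and WT+IFNa and set apart in A20iKO. The summed level of the 10 was 173 to 220.0 CPM in WT, 1438 to 1557 CPM in WT+IFNa and 916 to 1183 CPM in A20iKO, a sum made up largely of Ly6a, which was at 1329 ± 58.0 CPM (SD, n = 3) in WT+IFNa. Of 9 monocyte and macrophage markers 6 were higher and 1 lower in A20iKO than in WT (summed level 1416 to 1711 CPM in WT, 2013 to 2571 CPM in WT+IFNa, 2778 to 2889 CPM in A20iKO). In the same comparison 3 of 4 mast cell and basophil markers tested (Cpa3, Mcpt8 and Prss34) were higher. Of 10 neutrophil markers 4 were higher and 2 lower. Those higher, by mean level in WT and A20iKO, were Prtn3 (0.594 and 174 CPM), Mpo (1.79 and 65.4 CPM), Ctsg (0.474 and 29.4 CPM) and Mmp8 (8.60 and 77.8 CPM). Those lower were S100a8 (36.5 and 5.99 CPM) and S100a9 (47.8 and 4.85 CPM). The 6 plasmacytoid markers tested gave 4 higher and 1 lower, and 4 of 7 cDC1 markers were lower. Under IFNa against WT, 3 of 9 monocyte and macrophage markers were higher and 2 lower, 2 of 4 mast cell and basophil markers (Cpa3 and Mcpt8) and 3 of 10 neutrophil markers (S100a8, S100a9 and Prtn3) were higher with none lower, 1 of 6 plasmacytoid markers (Bst2) was higher, and 2 of 7 cDC1 and 3 of 10 cDC2 markers were lower. Summed B cell markers were at 5.99 to 60.6 CPM with 1 of 3 tested, Pax5, higher in A20iKO, T cell markers were at 0.3 to 6.0 CPM and NK cell markers at 0 to 3.0 CPM. The 6 erythroid markers summed to 588 CPM in A20iKO library 1 and 74.9 to 126 CPM elsewhere, and none of the 4 tested passed. The part of any of these cells in the levels of the replication genes was not tested.

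Other letters were looked for in the same promoters. CCAAT, the box bound by NF-Y, was in 18 of the 31 member promoters (58.1%) and in 41.1% of all genes in the table. TTTGAA, the core of the element bound by the DREAM complex at mitotic genes, was in 4 of 31 (12.9%) and in 20.2% of all genes, while it was in 15 of 21 promoters of the mitosis list. GAAANNGAA, a core of the interferon response element in which N is any base, was in 1 of 31, that of Slbp, and in 9.76% of all genes. The E2F letters were in 6 of the 17 members with a promoter that rose in A20iKO and in 6 of the 14 that did not pass, in 12 of 43 promoters of the other replication and nucleotide genes, and in 1 of 21 of the mitosis list. Both strands were searched in each case.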

How the data were processed

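The authors deposited 1 table of whole-number counts per gene symbol for each of the 9 libraries, not normalized. Libraries were made with a 3' tag kit, per the labels' protocols, and the submitters' processing notes name STAR 2.7.10b, featureCounts 2.0.6, fastp 0.23.1, Bowtie2 and build GRCm39. How strand and shared reads were handled is not stated there, so near-copies and overlapping genes are uncertain. Group and replicate number came from the titles.

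The filter was filterByExpr of edgeR, with a count minimum of 10 and a total of at least 15, and kept 99.83% of counts. edgeR 4.0.16 (R 4.3.3) was fitted to all 9 libraries with TMM factors and the quasi-likelihood test (6 residual degrees of freedom), with Benjamini-Hochberg adjustment over the 13251 genes kept and a threshold of 0.05. Standard errors were derived from the F statistic, and the common BCV (biological coefficient of variation) came to 0.554. Library pairs of a group differed beyond counting noise (chi-square per degree of freedom of at least 14.4), so none was treated as a repeat deposit of another; this does not show that they come from different mice or cultures. Alternatives were other size factors, DESeq2 1.42.0, limma-voom 3.58.1, other filters, fewer libraries, a replicate block and a stromal covariate. The fit was tested on simulated data.

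The members and lists were chosen with earlier results of these data known. The text names all 36 members, with full values for those past the threshold, the smallest p of each role and 6 genes named in any case (Pcna, Mcm2, Rrm2, Tk1, E2f1 and Ccne1). Of the other lists it names up to 8 genes per comparison past the threshold, and Mki67, Gmnn, Samhd1, Cdkn1a, Ccnd3 and Cebpa. Promoter sequences are from RefSeq (GRCm38.p6); 5 of the 31 matched members had several starts, any of which could hold a match. Of the nucleotide supply list, 1 gene is not reported here.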

Additional observations from a re-analysis of the deposited data

How the results depend on the processing

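No member was lower in any comparison under any of the 19 alternatives. The count of members higher in A20iKO than in WT was 19 and ranged from 9 (without A20iKO replicate 3) to 19 with 1 library left out. Without A20iKO replicate 2, 11 remained, and 10 of the 19 calls were lost without A20iKO replicate 3. The number of all genes higher also fell, from 765 to 480 without A20iKO replicate 2 and to 478 without A20iKO replicate 3. The fit with a replicate block gave 12 in A20iKO against WT, 1 under IFNa against WT and 0 in A20iKO against WT+IFNa. Same-numbered libraries correlated at -0.371 to 0.237 in their deviations from the group means, with 1 of 9 pairs above 0.1. Pairs of different number correlated at -0.309 to 0.358, with 7 of 18 above 0.1. Of the 9 libraries, 2 correlated best with their own number. The stromal-rich libraries (WT library 2, WT+IFNa library 3 and A20iKO library 1) correlated with one another at 0.264 to 0.358. The check therefore cannot tell whether the numbers mark pairs, and the main fit has no replicate block. The count under IFNa was 4 with no filter on low counts, 7 with the stromal covariate and 1 to 3 with 1 library left out. The count in A20iKO against WT+IFNa was 2 with RLE size factors and with the stricter filter, 3 with library size alone, with DESeq2 and with limma-voom, 4 with the 6 libraries of both groups alone and with the stromal covariate, 5 with no filter, and 0 to 4 with 1 library left out. Without the library of highest Col1a1 in each group, an alternative chosen after seeing the data, the counts were 15, 2 and 5. The median log2 fold change in A20iKO against WT+IFNa was 0.28 to 0.55 with 1 library left out. The causes of these shifts were not tested.

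The values that changed sign did not pass the threshold in the comparison they belong to. Under IFNa against WT, library size alone gave -0.0649 for Rrm2, -0.0174 for Pcna and -0.0424 for E2f1, and the fit without the highest-Col1a1 libraries gave -0.45 for Rrm2, 0.0527 for Slbp and -0.0416 for E2f1; with 1 library left out the ranges were Tyms at -0.0324 to 0.39, Mcm4 at -0.0126 to 0.34, Rrm2 at -0.23 to 0.51, Pcna at -0.0854 to 0.30, E2f1 at -0.11 to 0.25 and Prim1 at -0.25 to 0.21. In A20iKO against WT, Pold1 was at -0.11 to 0.46 with 1 library left out. In A20iKO against WT+IFNa, library size alone gave 0.0652 for Cdt1 and 0.0776 for Ccne2, and the fit without the highest-Col1a1 libraries gave 0.00159 for Mcm10 and -0.15 for Slbp; with 1 library left out the ranges were Cdt1 at -0.20 to 0.0798, Rfc3 at -0.36 to 0.0367, E2f1 at -0.00982 to 0.27, Ccne2 at -0.12 to 0.0842, Slbp at -0.25 to 1.22 and Mcm10 at -0.46 to 0.0228. Library size alone moved the median of all genes to -0.15 under IFNa and to 0.12 in A20iKO against WT+IFNa, and the split of all genes called from 318 higher and 93 lower to 286 and 184, and from 271 and 452 to 370 and 379. The depth was 6900598 to 10552756 counts per library. In A20iKO against WT the median SE on the log2 scale was 0.42 for members under 20 CPM and 0.41 for all genes tested. The part of depth in these errors was not tested.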
